A study of Mus musculus with 4 samples.

Results

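The Ms4a genes encode small membrane proteins, and 9 of them were examined in cultured mouse macrophages with and without deletion of G3bp1: Ms4a4a, Ms4a4b, Ms4a4c, Ms4a4d, Ms4a6b, Ms4a6c, Ms4a6d, Ms4a7 and Ms4a8a. They were selected from the table by symbol. They are 9 of the 34745 genes of the deposited table. Total RNA was sequenced in 4 libraries, 2 per genotype. The controls, labelled WT, were bone marrow-derived macrophages of mice with a floxed G3bp1 gene (G3bp1 f/f). The libraries labelled KO came from the same kind of macrophages of G3bp1 mac-/- mice, which carry the floxed gene and a Cre recombinase driven by the Lyz2 promoter, active in monocytes, macrophages and granulocytes. All cells were grown in DMEM with serum and antibiotics, and the labels give no further treatment. The age and sex of these mice, and whether the samples are separate animals or cultures, are not given in the sources used here, so p-values measure the spread between these libraries, which may be technical. The libraries are numbered 1 and 2 within each genotype, and the labels do not say what the number marks.

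MS4A proteins cross the membrane several times with both ends in the cytoplasm, and many act beside an immune receptor rather than as receptors for a known ligand. The best known are CD20 of B cells (Ms4a1) and the beta chain of the high-affinity IgE receptor of mast cells and basophils (Ms4a2). The Ms4a4, Ms4a6, Ms4a7 and Ms4a8 genes are known from macrophages, monocytes and, for some, T cells. Their functions are less well defined.

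The 9 genes lay in a cluster on chromosome 19 of the GRCm38 mouse genome, from position 11067471 to 11604849, a span of 537 kb. In the order of the chromosome, Ms4a8a (ENSMUSG00000024730, 11067471 to 11081102) and Ms4a7 (ENSMUSG00000024672, 11321039 to 11336146) were on the minus strand. They were followed on the plus strand by Ms4a4a (ENSMUSG00000101389, 11375523 to 11392790), Ms4a4c (ENSMUSG00000024675, 11404770 to 11427246), Ms4a4b (ENSMUSG00000056290, 11443553 to 11463549), Ms4a6c (ENSMUSG00000079419, 11469366 to 11482192), Ms4a6b (ENSMUSG00000024677, 11516512 to 11531256) and Ms4a4d (ENSMUSG00000024678, 11536801 to 11558467). Ms4a6d (ENSMUSG00000024679, 11586604 to 11604849) closed the row on the minus strand. The table held 10 other Ms4a genes, all on the same chromosome, and some of them lie between Ms4a8a and Ms4a7.

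The promoters are shown for the pairs of neighbours whose start regions are most alike, because these pairs include Ms4a4c and Ms4a6b, which have the most negative fold changes described below. RefSeq windows of 300 bases, from 250 before to 50 after an annotated start (GRCm38.p6), were matched by symbol for 8 of the 9 members. Ms4a6d had no window. Capitals mark the core of the interferon-stimulated response element (ISRE), searched as GAAANNGAA on both strands. Each window below is on the plus strand, and those of Ms4a6b and Ms4a4c lie inside the gene span given above, since RefSeq places their starts further along.
Ms4a6b, chr19:11518309-11518608: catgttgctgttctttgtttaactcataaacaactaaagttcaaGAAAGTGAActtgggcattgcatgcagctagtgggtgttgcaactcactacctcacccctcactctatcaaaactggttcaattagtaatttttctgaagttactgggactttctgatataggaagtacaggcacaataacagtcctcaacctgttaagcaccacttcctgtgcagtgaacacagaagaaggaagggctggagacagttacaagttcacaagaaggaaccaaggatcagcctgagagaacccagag
Ms4a6c, chr19:11469118-11469417: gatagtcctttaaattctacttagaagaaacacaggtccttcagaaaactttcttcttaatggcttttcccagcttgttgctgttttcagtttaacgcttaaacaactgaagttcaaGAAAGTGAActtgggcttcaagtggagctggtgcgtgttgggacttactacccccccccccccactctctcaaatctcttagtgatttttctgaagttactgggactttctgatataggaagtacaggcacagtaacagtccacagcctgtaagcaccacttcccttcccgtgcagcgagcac
Ms4a4c, chr19:11407411-11407710: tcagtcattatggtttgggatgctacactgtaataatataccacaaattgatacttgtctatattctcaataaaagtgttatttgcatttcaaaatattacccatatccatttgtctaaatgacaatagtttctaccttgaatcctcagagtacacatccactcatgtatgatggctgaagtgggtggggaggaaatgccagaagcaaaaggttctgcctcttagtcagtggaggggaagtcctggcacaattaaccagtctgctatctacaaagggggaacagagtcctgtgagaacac
Ms4a4b, chr19:11443308-11443607: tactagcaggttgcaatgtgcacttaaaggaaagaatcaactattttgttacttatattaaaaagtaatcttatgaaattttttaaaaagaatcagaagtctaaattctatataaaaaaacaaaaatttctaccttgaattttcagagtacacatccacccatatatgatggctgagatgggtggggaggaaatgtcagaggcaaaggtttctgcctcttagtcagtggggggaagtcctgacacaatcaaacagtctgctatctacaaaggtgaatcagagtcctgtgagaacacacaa
Aligned end to end, 77.7% of the window was identical between Ms4a4b and Ms4a4c, and 66% between Ms4a6b and Ms4a6c. Of all 35 pairs of windows of different members, no other exceeded 59.0%. Ms4a6b and Ms4a6c shared an unbroken run of 48 bases. Both also held the same ISRE letters, starting 206 bases before the start of Ms4a6b and 133 bases before that of Ms4a6c. Ms4a7, which has a window for each of its 2 annotated starts, held a match with other letters in each. In all, 3 of the 8 members with a window had an ISRE match, counted over 9 windows, whereas 8.56% of the 32851 RefSeq windows held one. The matches of Ms4a6b and Ms4a6c lie in start regions that are alike, so they are not independent. The windows of Ms4a4c and Ms4a4b held no match. The GAS element (TTCNNNGAA, in 8.30% of windows) and a PU.1 motif (GAGGAAG, in 13.6%) had no match in the windows of the members. A match describes the letters and does not show binding.

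In these macrophages the family was carried by 4 genes. Levels between genes are compared as FPKM (fragments scaled to gene length and library total), a scale that takes account of length. Ms4a6d, known as a partner of the macrophage receptor VSIG4, was the most abundant member. It had 99.4 and 143 FPKM in WT replicates 1 and 2 and 90.5 and 114 FPKM in KO replicates 1 and 2. It made up 49.5% to 62.5% of the summed FPKM of the 9 members in a library, and its mean of 112 FPKM ranked 420th of all genes in the table.

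Next came Ms4a6c, a gene known from monocytes, with 25.1 and 67.7 FPKM in WT and 18.9 and 47.4 FPKM in KO. Its level in both libraries numbered 2 exceeded that in both numbered 1. Ms4a8a, which has been described in alternatively activated macrophages, had 31.9 and 29.5 FPKM in WT and 20.9 and 22.3 FPKM in KO. Ms4a7, a gene known from macrophages and microglia, had 21.5 and 33.6 FPKM in WT and 10.4 and 25.1 FPKM in KO. The ranges of Ms4a6c, Ms4a8a and Ms4a7 overlapped one another. Ms4a6c exceeded Ms4a7 in each of the 4 libraries, whereas Ms4a8a was above each of the other two in 2 of 4. Ms4a6d lay above Ms4a6c, the next in order, in all 4 libraries without overlap, and Ms4a7 lay above Ms4a4a in the same way.

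The remaining members were low. Ms4a4a, known as a partner of the beta-glucan receptor Dectin-1, had 4.15 and 8.34 FPKM in WT and 3.15 and 3.45 FPKM in KO. Ms4a4c, also known from monocytes, had 0.637 and 4.89 FPKM in WT and 0.259 and 1.14 FPKM in KO. Ms4a6b had 1.12 and 1.78 FPKM in WT and 0.451 and 0.413 FPKM in KO. Ms4a4d and Ms4a4b, the latter known from T cells, had means of 0.205 and 0.128 FPKM over the 4 libraries. From Ms4a4a downwards the ranges of neighbours in the order overlapped, although Ms4a4a was above Ms4a4c in each of the 4 libraries.

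**Figure D1:**
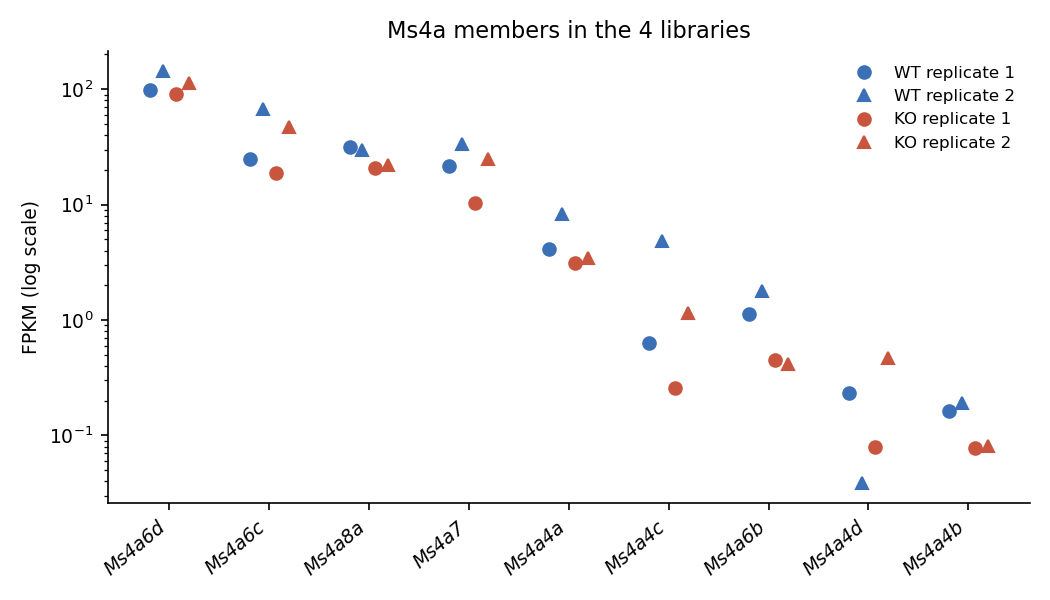
Level of each Ms4a member in the 4 libraries, in FPKM on a log scale; blue points are WT, red points KO, circles replicate 1 and triangles replicate 2. Ms4a6d lies highest, at 90.5 to 143 FPKM, and Ms4a4b and Ms4a4d lie lowest.

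The lengths behind these values matter for part of the order. FPKM had been divided by a gene length of 8215 bases for Ms4a6b, whereas its annotated exons (GENCODE M21) cover 4485 bases. With exon lengths from that annotation, a choice made after seeing the data, the mean of Ms4a6b was 1.72 instead of 0.941 FPKM and that of Ms4a6d 149 instead of 112 FPKM. Ms4a7 (28.2 FPKM) and Ms4a8a (27.9 FPKM) then changed places. Sequence shared among members was limited: of all stretches of 50 bases in annotated transcripts, 8.19% in Ms4a4c, 5.85% in Ms4a6c, 3.44% in Ms4a6b and at most 2.31% in any other member also occurred in another Ms4a gene. Reads from such stretches cannot be assigned with certainty. Ms4a6c also overlaps the antisense gene BE692007, with which it shared 49.6% of these stretches and which was given 1 to 6 counts per library. Whether counting used the strand is not stated.

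Comparisons between genotypes used CPM, which are counts divided by library totals that had been corrected for composition with the TMM method, and edgeR's quasi-likelihood test across 12418 genes. Fold changes are log2 of KO over WT, with their standard error (SE). To be called, a gene had to reach an adjusted p under 0.05 and a log2 fold change over 1 in size. Counts of G3bp1 itself were 1691 and 2875 in the WT libraries and 1307 and 2296 in the libraries labelled KO, where its mean CPM was 65.6% of that in WT. Counting by gene does not resolve lost exons, so G3bp1 does not check the labels, on which each direction below rests. All 14 macrophage markers passed the filter on low counts. Total counts were 16724241 to 19747909 per library, and 3 counts, the limit that a count of 0 allows, corresponded to 0.152 to 0.188 CPM (counting error only). No library was a copy of another, since any pair of them differed beyond sampling noise (a chi-square of 22.7 to 125 per degree of freedom). The closest pair was WT replicate 2 and KO replicate 2, at 22.7, against 118 between the WT libraries and 87.9 between the KO libraries. WT replicate 1 and KO replicate 1 stood at 85.0. The main fit did not take the number into account, and fits that did are given in the closing section.

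All 8 members that could be tested had a negative log2 fold change in KO, where 45.4% of all tested genes did. Their median was -0.91, against 0.041 for all tested genes. None of the 8 was called, and 0% of the tested genes were: 0 of 12418 passed, while 823 had an unadjusted p under 0.05. Among genes with an unadjusted p under 0.05 and a lower level in KO were 3 members, Ms4a6b, Ms4a8a and Ms4a4b, and 1.99% of the tested genes. Ms4a4b, counted in each of these tallies, passed the filter on low counts only through the WT libraries, so the filter fixed its direction. With a mean CPM of at least 1 as the filter, which leaves it out, the other 7 members were negative with a median of -0.75. The smallest adjusted p of a member was 0.264, and that of any gene was 0.0863. In 4 members, Ms4a6b, Ms4a8a, Ms4a4a and again Ms4a4b, both KO libraries lay below both WT libraries, which held for 16.9% of tested genes, and in 0 members both lay above, which held for 20.0%. An exact permutation test of a single gene with 2 libraries against 2 cannot give a p below 0.333. In bulk RNA, fewer cells that express a gene and less RNA per cell cannot be told apart.

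The size of the median rested on single libraries. It was -0.46 without WT replicate 2, when 2 of the 8 members turned positive, and -0.73 without KO replicate 1. It was -1.27 without WT replicate 1 and -1.46 without KO replicate 2. KO was below WT within number 1 and within number 2 for all 8 members, as for 29.0% of tested genes. Between libraries of the same number, the median log2 ratio of the members was -1.04 (number 1) and -0.94 (number 2), against 0.11 and -0.0013 for all tested genes. Without Ms4a4b, KO was lower within both numbers for the other 7, with medians of -0.83 and -0.60.

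**Figure D2:**
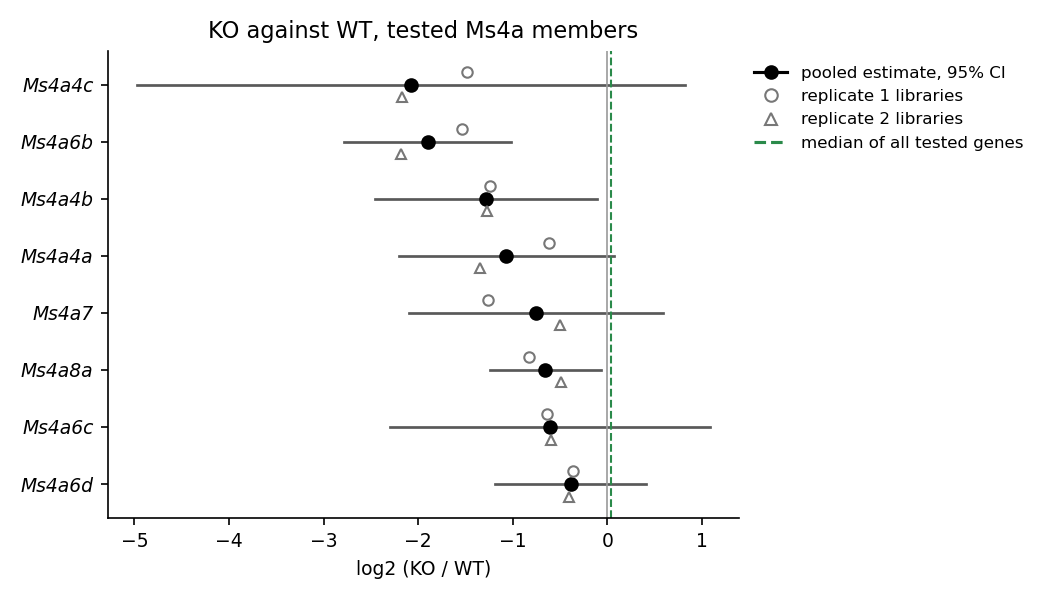
Log2 fold change of KO over WT for the 8 tested Ms4a members; points are the edgeR estimates and bars their 95% confidence intervals. All 8 estimates lie below 0, from -2.08 for Ms4a4c to -0.39 for Ms4a6d, and no member was called.

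The smallest adjusted p of the family belonged to Ms4a6b. WT had 157 and 247 counts (9.67 and 15.5 CPM), and KO had 62 and 67 (3.32 and 3.40 CPM). Both KO libraries lay well below both WT libraries and close to each other. WT averaged 12.6 ± 4.11 CPM and KO 3.36 ± 0.0542 CPM (mean ± SD, n = 2 each), 3.74-fold less. Its log2 fold change of -1.90 (SE 0.35) had a 95% confidence interval of -2.78 to -1.02 and an adjusted p of 0.264. It stayed between -2.20 and -1.55 when any library was left out. With genotype as the only term, the call depended on the test. Ms4a6b was the only member called by edgeR's exact test (adjusted p = 0.0280) and by the DESeq2 Wald test (adjusted p = 0.00183). These tests called 1.40% and 1.46% of the tested genes.

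Ms4a8a had the smallest error. WT had 1039 and 959 counts (64.0 and 60.1 CPM), and KO had 670 and 843 (35.9 and 42.8 CPM). The libraries of a genotype lay close together and the genotypes did not overlap. The log2 fold change was -0.66 (SE 0.23, interval -1.24 to -0.072), with an adjusted p of 0.665.

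For Ms4a4a, WT had 59 and 118 counts (3.63 and 7.40 CPM), against 44 and 57 in KO (2.36 and 2.89 CPM). Both KO libraries were lower, with WT replicate 2 the highest of the 4. Its log2 fold change was -1.07 (SE 0.45), the interval reached from -2.20 to 0.069, and the adjusted p was 0.790. It was -0.50 without WT replicate 2. Ms4a4b was close to the lower end of what was counted, with 19 and 22 counts (WT) against 9 and 11 (KO). Its log2 fold change of -1.28 is given as a description only, because of the filter.

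For the other 4 tested members, the genotypes overlapped. Ms4a6d had 242 and 352 CPM in WT and 188 and 265 CPM in KO, so that KO replicate 2 lay above WT replicate 1. Its log2 fold change was -0.39 (SE 0.32, interval -1.19 to 0.41, adjusted p = 0.941). It was -0.12 without WT replicate 2, -0.16 without KO replicate 1, -0.63 without WT replicate 1 and -0.66 without KO replicate 2. Ms4a7 had 125 and 198 CPM in WT and 51.9 and 140 CPM in KO, with KO replicate 1 by itself at the low end. Its log2 fold change of -0.75 (SE 0.53, adjusted p = 0.922) was -0.21 with KO replicate 1 left out and -1.64 with KO replicate 2 left out.

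Ms4a6c had 60.9 and 167 CPM in WT and 39.2 and 110 CPM in KO. The log2 fold change was -0.61 (SE 0.67, adjusted p = 0.962), but leaving out WT replicate 2 turned it to 0.26. Leaving out KO replicate 1 gave -0.046, WT replicate 1 -1.16 and KO replicate 2 -1.54. Ms4a4c had the largest estimate and the largest error. WT had 25 and 191 counts (1.54 and 12.0 CPM), against 10 and 52 in KO (0.536 and 2.64 CPM). WT replicate 2 was far above the other libraries. The log2 fold change was -2.08 (SE 1.14, interval -4.98 to 0.82, adjusted p = 0.866), and it was 0.016 without WT replicate 2 and -3.64 without KO replicate 2. Ms4a4d, at 6 and 1 counts for WT and 2 and 14 for KO, did not pass the filter on low counts.

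A second difference ran between the numbers. In 7 of the 8 tested members the library numbered 2 exceeded the library numbered 1 in both genotypes, which held for 32.3% of tested genes. It did so by more than 2-fold in both genotypes for Ms4a4c and Ms4a6c, as for 4.36% of tested genes. For Ms4a4c the log2 ratio of number 2 to number 1 was 2.93 in WT and 2.24 in KO. For Ms4a6c it was 1.45 and 1.49. The ratios were 0.66 and 1.43 for Ms4a7, 0.54 and 0.49 for Ms4a6d, 1.02 and 0.29 for Ms4a4a, 0.68 and 0.032 for Ms4a6b and 0.23 and 0.20 for Ms4a4b. Ms4a8a differed least in WT, at -0.090, with 0.25 in KO. Within a number, KO against WT gave log2 ratios of -1.53 and -2.18 for Ms4a6b, -1.48 and -2.17 for Ms4a4c and -1.27 and -0.50 for Ms4a7. The corresponding ratios were close to each other for Ms4a6c, at -0.63 and -0.60, and for Ms4a6d, at -0.36 and -0.41. These ratios describe pairs of single libraries and carry no test.

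**Figure D3:**
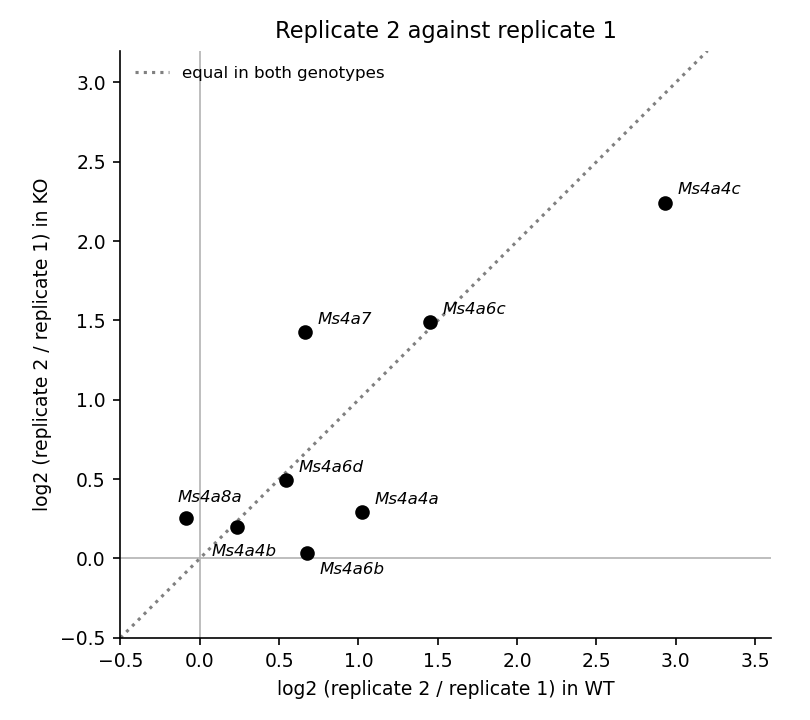
Log2 ratio of library 2 to library 1 in WT (horizontal axis) and in KO (vertical axis) for the 8 tested Ms4a members, computed from CPM with 0.5 counts added; each point is a gene. Ms4a4c and Ms4a6c lie above 1 (2-fold) on both axes, and Ms4a8a is the only member below 0 on one of them.

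Genes with the most similar pattern were looked up for the most abundant member and for the one with the largest fold change, by the root mean square distance between log2 CPM centred over the 4 libraries. For Ms4a4c the nearest were Mx2 (distance 0.179), Ifit1 (0.244) and Mx1 (0.270), all interferon-induced antiviral genes. Ifit1 counts were 57 and 531 (WT) and 37 and 164 (KO), and those of Mx2 were 4 and 39 against 2 and 12. As for Ms4a4c, WT replicate 2 was the highest and KO replicate 1 the lowest. This order also held for every other tested member except Ms4a8a, so it does not set Ms4a4c apart. For Ms4a6d the nearest were Elp5 (0.0149), Mllt11 (0.0405) and Fcmr (0.0458). With 4 libraries many genes lie close to any pattern, and these distances are a description.

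**Figure D4:**
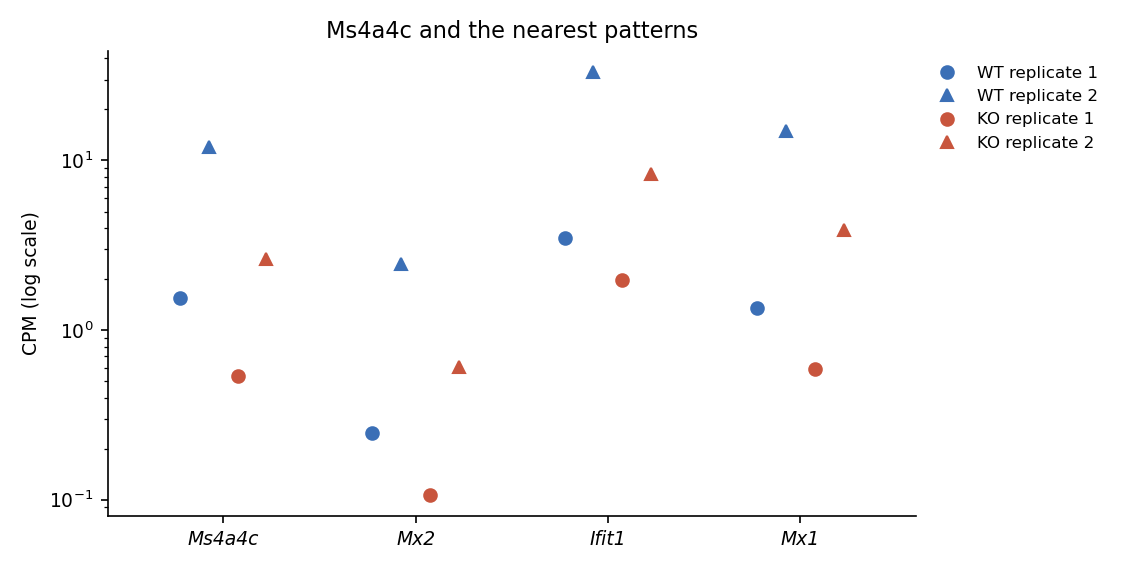
Levels of Ms4a4c and of its 3 nearest genes by pattern, Mx2, Ifit1 and Mx1, in CPM on a log scale in each library; blue points are WT, red points KO, circles replicate 1 and triangles replicate 2. In each gene WT replicate 2 lies highest and KO replicate 1 lowest, as in every other tested member except Ms4a8a.

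Among genes linked to the family, the interferon response was described first. Of 28 tested genes 27 had a negative log2 fold change, where 45.4% of all tested genes did, with a median of -1.13. In 14 both KO libraries were below both WT libraries, against 16.9% of all tested genes, and none was called. The summed level of all 30 listed genes, tested or not, was 698 and 1189 CPM in WT and 498 and 605 CPM in KO. The same library was highest and the same one lowest as for Ms4a4c and every other tested member except Ms4a8a. The largest differences among the non-overlapping genes were in Ifit3 (log2 fold change -2.64, adjusted p = 0.679), Rtp4 (-2.29, 0.448), Usp18 (-1.91, 0.250) and Oas2 (-1.86, 0.555). Of 17 genes of alternative macrophage activation, the state in which Ms4a4a and Ms4a8a have been described, 11 were negative, the median was -0.56 and none was called. Both KO libraries were lower in 6 and higher in 2, against 16.9% and 20.0% of all tested genes. Retnla (-2.40) and Irf4 (-1.67) were among the lower and Fn1 (1.33) among the higher, with adjusted p from 0.250 to 0.387.

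Binding partners and linked receptors did not all share a direction. Of 18 tested genes 14 were negative, where 45.4% of all tested genes were, and the median was -0.30. Both KO libraries were lower in 5 and higher in 4, against 16.9% and 20.0% of all tested genes. None was called. Clec7a, which encodes Dectin-1, was counted 20974 and 17110 times for WT and 14639 and 12671 times for KO (log2 fold change -0.73, SE 0.23, adjusted p = 0.595). Fcgr4, an activating IgG receptor, had a log2 fold change of -0.58 with an adjusted p of 0.879. Tmem176a and Tmem176b, which encode tetraspanning proteins related to MS4A proteins, had the opposite sign to the members. Tmem176a had 127 and 209 counts (WT) against 332 and 447 (KO), a log2 fold change of 0.95 (SE 0.34, adjusted p = 0.676). Tmem176b had 246 and 288 against 471 and 686, a log2 fold change of 0.85 (SE 0.27, adjusted p = 0.554). In both genes the KO libraries lay above the WT libraries.

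The neighbouring genes on chromosome 19 were mixed in direction. Within 1 Mb on either side of the cluster there were 77 other genes, 28 of them tested. The median of their log2 fold changes was 0.13, 10 were negative, where 45.4% of all tested genes were, and none was called. Both KO libraries were lower in 4 and higher in 11, against 16.9% and 20.0% of all tested genes. Myrf (1.73), Fads2 (1.67) and Tmem132a (0.97) were above WT in both KO libraries, with adjusted p from 0.298 to 0.640. Gm8369 (-1.12), which lies between Ms4a6c and Ms4a6b, was lower in both, with 18 and 17 counts against 9 and 10, but it passed the filter through the WT libraries alone.

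Of the 10 other Ms4a genes, Ms4a3, Ms4a5, Ms4a10, Ms4a12, Ms4a13, Ms4a15 and Ms4a18 had 0 counts in every library. Ms4a2 had 4 or 5 counts per library and was not tested. Ms4a14 was at 22 and 107 counts for WT and 31 and 121 for KO. Its log2 fold change between genotypes was -0.044, while its log2 ratio of number 2 to number 1 was 2.28 in WT and 1.87 in KO. Ms4a1 was at 97 and 98 counts for WT and 57 and 52 for KO (log2 fold change -1.09, SE 0.30, adjusted p = 0.462).

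Markers of other cells were summed in the same libraries over all listed genes, tested or not, and no marker was called. Of all tested genes, both KO libraries were lower in 16.9% and higher in 20.0%. The stromal markers, 10 of 10 tested, summed to 80.5 and 93.7 CPM in WT and 357 and 332 CPM in KO, with a median log2 fold change of 2.29 and both KO libraries higher in 9, among them Lum, which passed the filter through the KO libraries alone. Mast cell and basophil markers, 6 of 10 tested, summed to 116 and 103 CPM in WT and 43.8 and 53.2 CPM in KO (median -1.36, both KO libraries lower in 5), with Mcpt8 at 0 throughout. B cell markers, of which Ms4a1 is one, were tested in 9 of 10 cases and summed to 131 and 131 CPM in WT and 115 and 98.8 CPM in KO (median -0.80, lower in 7). Without Cd22, which had 64.8 to 84.4 CPM, the sums were 57.7 and 63.8 CPM in WT and 30.7 and 34.0 CPM in KO. T and NK cell markers, the cells for which Ms4a4b is known, were tested in 3 of 14 cases (median -0.53, both KO libraries lower in 1), and summed to 31.1 and 12.7 CPM in WT and 43.7 and 13.2 CPM in KO. Cd28 made up most of these sums, and the rest came to 6.47 and 5.58 CPM in WT and 3.59 and 3.96 CPM in KO. Of the other genes, Cd3e had at most 1 count in a library, Cd3d 2 to 7, Cd3g 5 to 8 and Cd2 20 to 36. The macrophage markers summed to 28025 and 26484 CPM in WT and 22033 and 26015 CPM in KO, with a median of -0.18 and both KO libraries lower in 4 of 14. Monocyte markers, 11 of 12 tested, summed to 76.3 and 91.9 CPM in WT and 91.3 and 106 CPM in KO, with a median of -0.30. Both KO libraries were higher in 3 of them and lower in 2, Plac8 and Ly6c2, of which Ly6c2 passed the filter through the WT libraries alone. Neutrophil markers, 5 of 11 tested, had a median of -0.74 and sums of 80.5 to 114 CPM, were lower in 3 and higher in 1, and had Elane and Mpo at 0. Within that list S100a9 was at 91 and 82 counts for WT and 2 and 1 for KO, and Retnlg at 99 and 71 against 3 and 9, and both passed the filter through the WT libraries alone. Csf3r, at 48.1 to 76.2 CPM, made up most of the neutrophil sums, and the rest came to 39.8 and 37.8 CPM in WT and no more than 25.0 CPM in either KO library. Dendritic cell markers, 5 of 10 tested, had a median of -0.49 and sums of 7.03 to 11.1 CPM and were lower in 1. The part of these cells in the differences of the members was not tested.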

How the data were processed

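The authors filtered the reads, aligned them with HISAT2 (2.0.4 in the submitters' processing notes) and counted them per gene with StringTie (1.3.3b). They deposited raw counts, whole numbers without normalisation, with an FPKM value beside each. The deposited FPKM values were found to be scaled by library total and a fixed gene length only: for 10564 genes with at least 21 counts in every library, the implied length differed by at most 0.00398%. The notes name mm39, but 27682 of 34267 matched identifiers, and 8 of the 9 members, had their GENCODE M21 position, so positions are given on GRCm38. The end of Ms4a4b differs there (11467055 against 11463549 in the table).

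Counts were analysed with edgeR 4.0.16 in R 4.3.3 (filterByExpr with minimum count 10 and total 15, TMM factors 0.942 to 1.11, glmQLFit and glmQLFTest, two-sided, genotype as the only term, Benjamini-Hochberg over all 12418 tested genes of 17991 with a count). The alternatives used DESeq2 1.42.0 and limma 3.58.1. Log2 ratios between single libraries had 0.5 counts added. Promoter windows were searched and aligned in Python 3.11.15 with Biopython 1.88. The code was tested on simulated data. Reads carried no stated molecular identifiers. Protein identity between the members was not analysed here.

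The members, the lists and the tests were chosen with earlier results of these data known. Named were the members, the other Ms4a genes, G3bp1, from each list up to 4 genes with the largest fold change among those whose genotypes did not overlap, and the 3 nearest genes by pattern of 2 members. Of the cell marker lists, only genes on which a sentence turns were named. A gene that the rule would name in the alternative activation list is not reported here.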

Additional observations from a re-analysis of the deposited data

How the results depend on the processing

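Tested members kept a negative log2 fold change under every setting run, except Ms4a4c (0.016) and Ms4a6c (0.26) without WT replicate 2. With each library left out in turn, Ms4a4c ranged from -3.64 to 0.016 and Ms4a6c from -1.54 to 0.26. With the low-count filter removed, Ms4a4d was fitted and had a log2 fold change of 0.88. The members' median of -0.91 was -0.59 with limma on log2(FPKM + 1), -0.67 on log2(FPKM + 0.1), and between -1.46 and -0.46 with a library left out. The count of called genes, 0, was 2 with limma on log2(FPKM + 0.1), 174 with edgeR's exact test (144 higher, 30 lower) and 181 with the DESeq2 Wald test (136 higher, 45 lower), and the count of called members was 1 in the exact and in the Wald test. Both counts were 0 under DESeq2 size factors, both other filters, the length correction, no minimum fold change and each library left out. In the last, a genotype has 1 library, assumed to vary like the other genotype, so those counts of 0 say nothing of stability.

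With the number as a replicate block, 664 genes were called (494 higher, 170 lower), or 5.35% of those tested and 1.37% in the lower direction, 3 of them members: Ms4a6b (adjusted p = 6.41e-09), Ms4a4c (2.81e-06) and Ms4a4a (0.0245). With the replicate block and a gene length correction, 388 genes were called (282 higher, 106 lower), or 3.12% and 0.854% lower, again with 3 members: Ms4a6b (0.00197), Ms4a4c (0.00864) and Ms4a7 (0.0325). Ms4a7 with the replicate block alone had an adjusted p of 0.00328 at -0.88, under the limit on size. Ms4a4a was not called with the block and the length correction together, at -0.63 (adjusted p = 0.357). With the length correction alone it was -0.71. The correlation between same-numbered libraries, each taken relative to the mean of its genotype, was 0.692 across genes, which are not independent, but with 2 pairs and no label for the number the samples share only a number. The cause of these differences was not tested. Low counts limit Ms4a4b and Ms4a4d, and 2 libraries per genotype limit all fold changes.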
